A study of Mus musculus with 12 samples.

Results

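The comparison described here sets mouse embryonic stem cells that lack Alkbh5 (knockout, KO) against wild-type cells (WT), at the level of RNA bound to chromatin. It rests on 4 of the 12 samples of the series, 2 KO and 2 WT libraries. They were taken by genotype and replicate from the names of the columns in the deposited tables. All cells are of the E14TG2a line, a male mouse embryonic stem cell line, and both genotypes grew in serum with LIF, PD0325901 and CHIR99021. Both KO columns carry the same name apart from the replicate number, and whether they are 1 clone is not stated. RNA of the chromatin-associated fraction was depleted of ribosomal RNA, mixed with an m6A spike-in and fragmented, and an antibody against N6-methyladenosine (m6A) was used to pull down modified fragments. The column names do not say whether a library is immunoprecipitated or input. The libraries were read as immunoprecipitated because the samples' descriptions name an m6A matrix, and 0 columns were read as input. A difference below can therefore lie in m6A, in the amount of RNA or in gene copies, and these cannot be told apart. More cells with a given RNA and more of that RNA per cell cannot be told apart either. The 2 libraries of the third genotype, an Alkbh5 with its cIDR deleted (named delcIDR here), entered the fits to steady the estimate of the spread. They also counted toward the mean signal and mean reads that decided which features were tested.

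ALKBH5 is an oxygenase that removes the methyl group of m6A from RNA in the nucleus. m6A on chromatin-bound RNA is laid down by the METTL3 complex, and in embryonic stem cells transcripts of transposable elements are among those that carry it. Among these, LINE-1 elements copy themselves by reverse transcription, whereas endogenous retroviruses are flanked by long terminal repeats and fall into the ERV1, ERVK and ERVL classes. The ERVL class includes MERVL, which is active in the earliest cleavage-stage embryo and in a small share of cultured embryonic stem cells. ERVK includes the IAP elements, and the MaLR elements are old, mostly short relatives of ERVL. The tables name repeat families and not subfamilies, so MERVL itself is not separated from the rest of ERVL.

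The tables hold 74299 genomic intervals and 4929385 annotated repeat loci on the GRCm39 assembly, and give no gene names. Every deposited value divided by the smallest of its library gave a whole number, which was taken as the reads. The WT libraries held 13234793 and 13386543 interval reads and the KO libraries 14657271 and 13611019. The factor follows the reads of the m6A spike-in, which numbered 1172 and 1106 in WT and 1379 and 1870 in KO. Results are given on this deposited scale and after subtracting each library's median log2 value (centring), which removes the factor. The unmodified spike-in held 4580 and 1729 reads in WT and 4364 and 2679 in KO, above the m6A spike-in each time. Reads of the 2 WT libraries differed 7.29 times as much as counting error allows, and those of the 2 KO libraries 3.31 times (chi-square per degree of freedom), against 16.3 and 18.6 between KO and WT libraries of the same number. Nothing states that replicates were separate cultures, so the p-values measure only the spread between these libraries.

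Loss of Alkbh5 went with differences in both directions. Of 37759 intervals with a mean signal of at least 1, limma called 1767 higher in KO (4.68%) and 2747 lower (7.28%) after centring, at a Benjamini-Hochberg adjusted p of 0.05. On the deposited scale it called 372 higher (0.985%) and 3784 lower (10.0%), and the median interval lay at -0.35 on the log2 scale. Higher calls thus made up 8.95% of all calls on the deposited scale and 39.1% after centring. They made up 51.8% with ERCC reads as the scale and 36.5% with repeat reads outside the intervals. The division of the calls thus moved with the scale, but 2996 intervals were called both on the deposited scale and after centring. It also moved with centring kept. Higher calls were then 50.6% with a mean of at least 50 reads, 46.4% with DESeq2 and 31.9% with no filter on low values. In all 4514 centred calls, both KO libraries lay on the same side of both WT libraries. The calls were made on these same values, so this adds no separate support. The share over all tested intervals is not given here. The called intervals differed by a median of 1.06 on the log2 scale where higher and 1.01 where lower, and 995 and 1399 of them differed at least 2-fold.

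Among the repeat lists, ERVL intervals had the highest share of higher calls. At least 50% of the length of 1786 tested intervals was annotated as ERVL, and 561 of these were higher in KO and 13 lower after centring, which is 31.4% against 4.68% of all tested intervals. On the log2 scale their median exceeded the median over all intervals by 0.90 ± 0.15 (SE). The library medians were 0.12 and -0.12 in WT and 0.88 and 0.94 in KO, so the groups did not overlap. The count of 561 became 143 without WT replicate 2, 63 without KO replicate 1 and 62 without KO replicate 2, while the median stayed between 0.77 and 1.03. On the deposited scale 94 ERVL intervals were higher and 20 lower, with a median difference of 0.55. On each of the 21 chromosomes with 10 or more tested ERVL intervals, the median lay above that of all intervals.

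**Figure D1:**
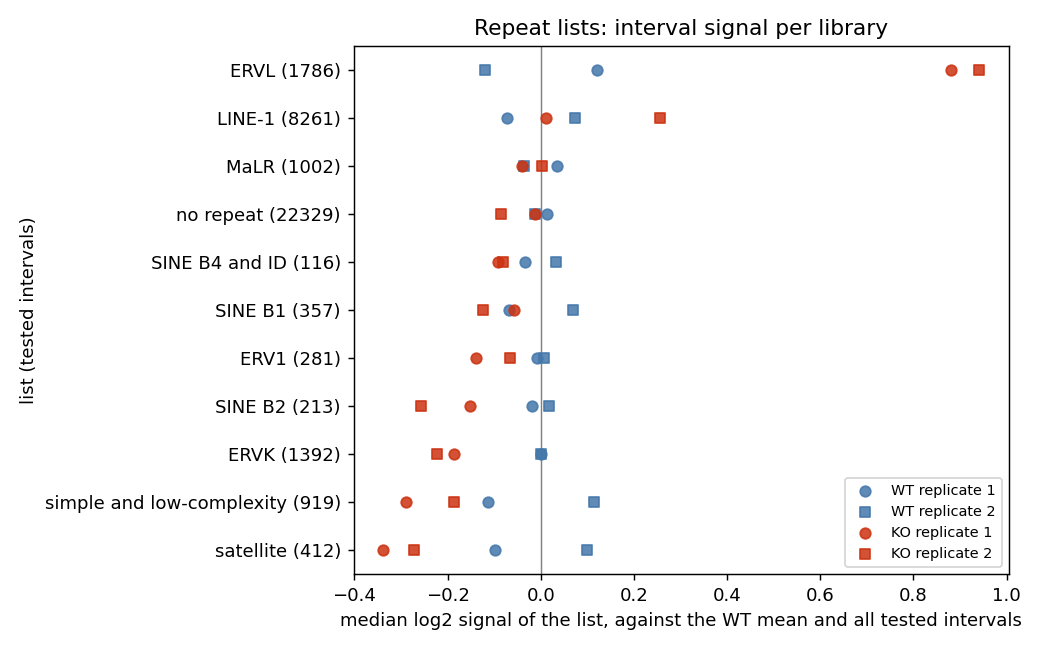
Median log2 signal of each repeat list with at least 100 tested intervals, per library, set against the WT mean and against all tested intervals (x axis); circles and squares are replicates 1 and 2. ERVL is the list whose KO libraries, at 0.88 and 0.94, lie far to the right of its WT libraries, while satellite, simple, ERVK and SINE B2 lists lie to the left.

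The ERVL difference was larger in longer annotated loci. Loci of 5000 bp or more number 616 in the annotation, and the 609 of them tested below had a median length of 5450 bp. Whether such a locus holds its terminal repeats, or these are listed as separate shorter loci, is not stated. The 616 loci took 4110.4 and 3517 RPM (reads scaled to a common total of repeat reads) in WT and 6705 and 7485 RPM in KO. This was a 1.86-fold higher level at 0.90 ± 0.14 (SE) on the log2 scale. Loci from 2000 up to 5000 bp lay at 0.49 ± 0.10, those from 600 up to 2000 bp at 0.25 ± 0.06, those from 200 up to 600 bp at 0.061 ± 0.021 and those under 200 bp at 0.054 ± 0.019. In each of the 5 length classes both KO libraries lay above both WT libraries. Of the 616 longest loci 611 lay inside intervals, against 239 of 47868 under 200 bp. Inside intervals loci under 200 bp lay at -0.086 ± 0.057 and those of 5000 bp or more at 0.90 ± 0.14. Outside them loci under 200 bp lay at 0.069 ± 0.025 and those from 2000 up to 5000 bp at 0.30 ± 0.08. The family as a whole took 28504 and 27069 RPM in WT and 32500.0 and 33100.1 RPM in KO. No such gradient was present in MaLR, whose 4 length classes lay between -0.056 and 0.046.

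**Figure D2:**
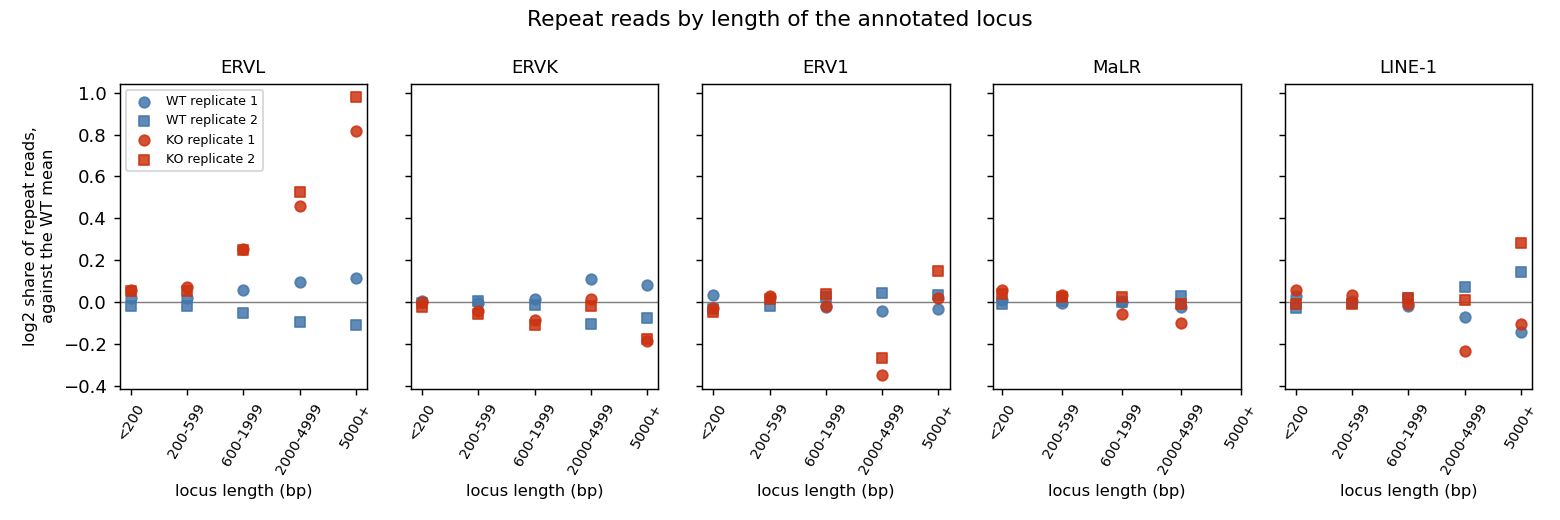
Share of repeat reads per library by length of the annotated locus (x axis, bp), as log2 against the WT mean (y axis), for 5 families. ERVL climbs with length to 0.90 for loci of 5000 bp or more, ERV1 dips between 2000 and 5000 bp, and the KO and WT points of LINE-1 interleave.

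Taken one by one, most long ERVL loci with enough reads were higher. Of 609 tested loci of 5000 bp or more, limma called 535 higher after centring (87.8%) and 0 lower. The background over all 234605 tested loci was 7388 higher (3.15%) and 9912 lower (4.22%). In 596 of the 609 both KO libraries exceeded both WT libraries, and in 1 both lay below. How often this occurred over all tested loci is not given here. Per kilobase of locus, the median over the 609 was 0.988 and 0.845 RPM in WT and 1.69 and 1.89 in KO. Their single differences ran from -0.35 to 1.71 on the log2 scale, with the middle 50% between 0.81 and 1.11. The count became 282 without WT replicate 2, 315 without KO replicate 1 and 177 without KO replicate 2, with 0 lower each time. On the deposited scale 22 were called higher and 0 lower, against 531 higher (0.226%) and 8688 lower (3.70%) over all loci. Reads from near-identical copies can be shared among them, so the position of a single copy is less certain than the family's total.

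The most read copies were called less often in these libraries, a difference in share that was not tested. The most read long ERVL locus, on chromosome 13 from 65825739 to 65831074, held 3554 and 3147 reads in WT and 3815 and 3886 in KO, and differed by 0.018 ± 0.121 (SE; limma adjusted p = 0.955). The next, on chromosome 7 from 139601844 to 139607155, held 1527 and 1320 reads in WT and 1785 and 1725 in KO (0.12 ± 0.13, limma adjusted p = 0.636). Neither passed the test, and scaled to repeat reads their KO and WT libraries overlapped. A locus on chromosome 8 from 57197302 to 57202780 did rise, from 772 and 629 reads to 2042 and 1963 (1.34 ± 0.14, limma adjusted p = 9.18e-07). These 3 were picked after their values had been seen, and not by read number alone. A locus on chromosome 2 from 152105774 to 152111226 had more reads over the 6 libraries than that on chromosome 8. It held 1207 and 947 reads in WT and 1419 and 1322 in KO, and was not called (0.17 ± 0.14, limma adjusted p = 0.519). Of the 12 long loci with a mean of 500 reads or more, 4 were called higher and their median was 0.35, against 403 of 438 called and a median of 0.97 among loci with 100 to under 200 reads.

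**Figure D3:**
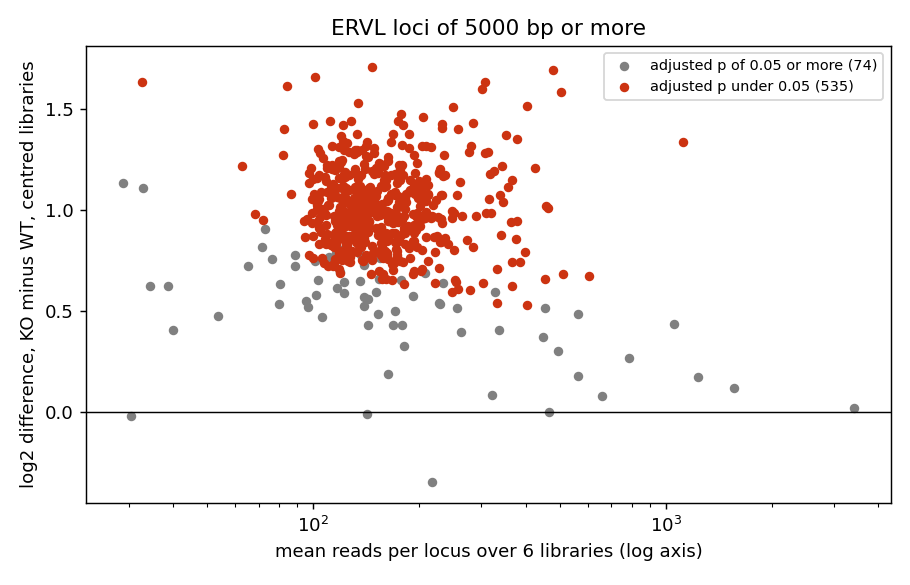
Log2 difference between KO and WT after centring (y axis) against the mean reads of each of 609 ERVL loci of 5000 bp or more (x axis, log scale); red points passed an adjusted p of 0.05 in limma. The bulk sits near 0.97 at 100 to 200 reads, and several of the most read loci sit near 0.

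Intervals made of ERVL were called more often the longer they were. Among ERVL intervals of 2000 bp or more, 303 of 427 were called higher (71.0%) and 0 lower, with a median 1.03 ± 0.16 (SE) above all intervals. Over all 2057 intervals of that length, these included, 325 were higher (15.8%) and 29 lower (1.41%). Among those in the shortest length class, which begins at 200 bp, 42 of 328 were higher (12.8%) and 8 lower, with a median of 0.63 ± 0.11, against 3.06% higher over all 12500 intervals of that class. The 227 ERVL intervals with a mean of 100 to under 200 reads had a median of 0.96 ± 0.16, whereas the 19 with 500 reads or more lay at 0.0031 ± 0.1721. Outside the intervals, 5073 tested ERVL loci were called higher 245 times (4.83%) and lower 241 times (4.75%), against 3.15% and 4.22% over all loci. Whether the intervals were defined on pooled libraries is not stated, so an ERVL copy may be inside one because it was high in KO.

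Intervals without a repeat that lay at or close to a long ERVL locus included more higher calls as a share than those farther away. This difference was not tested. Here and below, without a repeat means that no repeat list covered at least 50% of the interval. Such an interval can still hold some ERVL sequence, and one that overlaps the ERVL locus counts as within 10 kb. How many did so is not given here. Of 83 such intervals within 10 kb of an ERVL locus of 5000 bp or more, 12 were higher (14.5%) and 8 lower (9.64%). Between 10 and 50 kb away 27 of 465 were higher (5.81%) and 36 lower (7.74%). Beyond 1 Mb 554 of 13855 were higher and 1180 lower (8.52%). Their median difference within 10 kb was 0.059 above all intervals, against 0.90 for ERVL intervals themselves.

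ERVK lay on the opposite side, and ERV1 did so only in part. MaLR loci inside intervals had more calls in both directions than all loci, whereas MaLR intervals had fewer than all intervals. ERVK loci inside intervals were called lower 235 times and higher 39 times out of 1403 tested, or 16.7% and 2.78% against 4.22% and 3.15% over all loci. Their median lay at -0.19 ± 0.01 (SE) relative to all loci. Their summed share was 8443 and 8464 RPM in WT and 7133 and 7238 RPM in KO, and the groups did not overlap. Inside intervals, ERVK loci from 600 up to 2000 bp had the highest number of lower calls, 114 of 444 (25.7%), and those of 5000 bp or more had 3 of 201. In summed share over all ERVK loci, however, those of 5000 bp or more fell most among the length classes. They took 3262 and 2925 RPM in WT and 2717 and 2729 in KO (-0.18 ± 0.08, SE), which do not overlap. Their share lay at -0.051 ± 0.098 inside intervals and at -0.21 ± 0.08 outside. Loci from 600 up to 2000 bp lay at -0.098 ± 0.020 over all ERVK loci. Of 1392 ERVK intervals, 177 were lower (12.7%) and 38 higher (2.73%), against 7.28% and 4.68% of all tested intervals. The 177 became 102, 114, 75 and 78 when WT replicates 1 and 2 and KO replicates 1 and 2 were left out in turn. ERV1 loci from 2000 up to 5000 bp took 1542 and 1639 RPM in WT and 1249 and 1319 in KO, which do not overlap, at -0.31 ± 0.06 (SE) on the log2 scale. Without 1 locus on chromosome 17 described below, the ERV1 class lay at -0.21. The other ERV1 length classes lay between -0.037 and 0.082, and the summed share of all ERV1 loci at -0.017 ± 0.010 (SE). Inside intervals the summed share of ERV1 loci lay at -0.18 ± 0.06, but that of loci of 5000 bp or more at 0.12 ± 0.06. MaLR loci inside intervals were called lower 98 times (10.4%) and higher 54 times (5.71%) out of 946, against 4.22% and 3.15% over all loci. Of 1002 MaLR intervals, 63 were lower (6.29%) and 44 higher (4.39%), against 7.28% and 4.68% of all tested intervals.

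LINE-1, the repeat list with most tested intervals, did not separate the genotypes. LINE-1 loci of 5000 bp or more took 15367 and 18706 RPM in WT and 15748 and 20639 in KO. The libraries of either genotype differed from each other by more than the genotypes did, and the difference between genotypes was 0.089 ± 0.241 (SE). Replicate 2 was the higher in both genotypes, and between libraries of the same number KO lay above WT. Of 4911 tested loci of this length, 91 were higher and 62 lower, both below the share over all loci. LINE-1 intervals were higher 154 times and lower 173 times out of 8261, below the background in both directions. Of these, 3357 had a mean under 20 reads and 2802 one of 20 to under 50. In each class under 200 reads, both shares lay below those of all intervals in that class. With 200 to under 500 reads they were 6.53% higher and 11.8% lower of 245, against 5.10% and 11.2%. With 500 reads or more they were 7.35% and 13.2% of 68, against 3.98% and 9.84%.

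Satellite and simple-repeat intervals had medians below that of all intervals, and SINE intervals gave no steady direction. Satellite intervals had library medians of -0.098 and 0.098 in WT and -0.34 and -0.27 in KO, and 54 of 412 were lower and 7 higher. Simple and low-complexity intervals had 88 lower and 13 higher of 919, and SINE B2 intervals 20 lower and 6 higher of 213. For SINE B1 the counts were 36 lower and 11 higher of 357, and for SINE B4 and ID 10 lower and 3 higher of 116. Set against the background of 7.28% lower, satellite intervals reached 13.1%, B1 10.1%, simple ones 9.58%, B2 9.39% and B4 and ID 8.62%, which is close to it. Intervals without a repeat reached 8.95%, close to the shares of simple, B2 and B4 and ID intervals. The medians of B1, B2 and B4 and ID were -0.089, -0.20 and -0.052 relative to all intervals, and turned to 0.20, 0.097 and 0.026 where at least 90% of an interval had to be covered. Summed over all loci, B1 took a slightly larger share of repeat reads in KO (0.036 ± 0.013, SE, on the log2 scale), as did B4 and ID (0.069 ± 0.020), with libraries that did not overlap.

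Summed over all loci, 58 repeat families were tested. On the deposited scale limma called 0 higher and 0 lower (0% each, with 2 at an unadjusted p under 0.05, and 0 called by edgeR). That count became 54 without KO replicate 1 and 6 without KO replicate 2. After centring it called 7 higher (12.1%) and 4 lower (6.90%). The higher ones were ERVL (0.21 ± 0.07, SE), the LTR element Gypsy (0.19 ± 0.05), the old LINE family RTE-X (0.18 ± 0.05), and the DNA transposons Crypton (0.35 ± 0.07), Crypton-A (0.34 ± 0.12), Helitron (0.20 ± 0.06) and hAT (0.16 ± 0.06). Most of these are thinly read, with 30.6 to 43.3 RPM per library for Crypton. Among the called families the largest fall was that of the Y-chromosome satellite, at 279 and 287 RPM in WT and 221 and 222 in KO (-0.38 ± 0.05, limma adjusted p = 7.61e-10), but 63.1% of its reads came from 1 locus. The srpRNA family, copies of the RNA of the signal recognition particle, went from 1654 and 1552 RPM to 1339 and 1360 (-0.28 ± 0.06). hAT-Ac fell by 0.15 and SINE/tRNA fell by 0.15 on the log2 scale. With edgeR and TMM factors 4 families passed, of which ERVL was the 1 higher. In limma the ERVL family had an adjusted p of 0.0280, and lost its call with KO and WT libraries only, with either KO library left out and without WT replicate 1. Leaving out 1 library left between 2 and 5.

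Some chromosomes stood apart as a whole. Chromosome 6 lay 0.29 ± 0.03 (SE) and chromosome 8 0.23 ± 0.03 above all intervals on the log2 scale. Their KO libraries were at 0.27 and 0.30, and at 0.24 and 0.20, while their WT libraries lay within 0.002 of 0. Repeat loci outside the intervals showed the same, at 0.36 ± 0.04 on chromosome 6 over 13027 loci and 0.32 ± 0.01 on chromosome 8 over 13457 loci. On chromosome 6, 223 of 1953 intervals were higher (11.4%) and 64 lower. On chromosome 8 the counts were 194 and 69 of 1997. Chromosome Y lay at 0.29 ± 0.14 over 142 intervals. Without WT replicate 1 it lay at 0.093, and without the other libraries in turn between 0.20 and 0.43. The other chromosomes lay between -0.067 and 0.096.

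**Figure D4:**
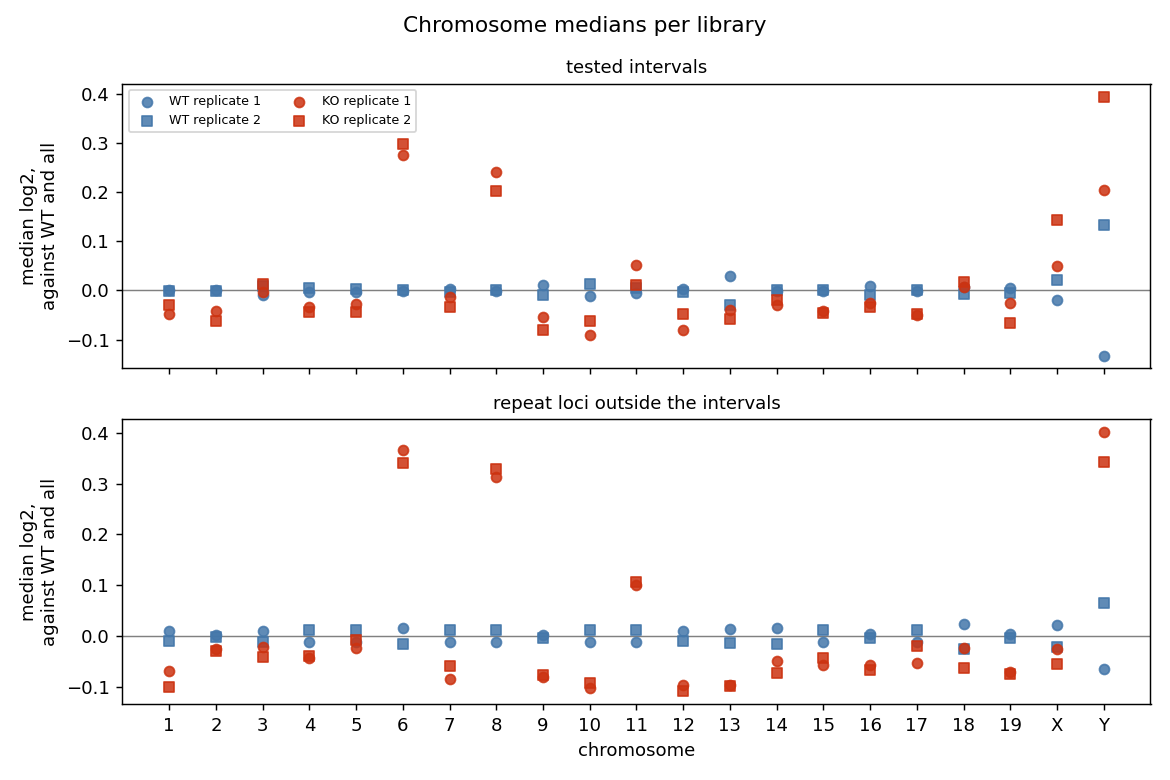
Median log2 signal of each chromosome per library, against the WT mean and all features, for tested intervals (top) and repeat loci outside the intervals (bottom). Chromosomes 6 and 8 lie above the rest in both KO libraries, as does Y with wider spread, and chromosome 11 lies slightly above in the lower panel.

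The profile was uneven along chromosome 11. In windows of 10 Mb, the 5 windows from 10 to 60 Mb lay between 0.39 and 0.69 above all loci outside the intervals, and the other 8 between -0.11 and 0.053. On chromosome 6, 14 of 15 windows exceeded 0.2, and on chromosome 8, 11 of 13. Of 227 windows elsewhere, including scaffolds, 2 did, at 80 to 90 Mb of chromosome 14 (0.33) and at 70 to 80 Mb of chromosome 4 (0.21). The unplaced scaffold JH584304.1 lay far on the other side, with 53 of 78 tested loci lower, 1 higher and a median of -1.11. Windows more than 0.2 below all loci outside the intervals were also found on placed chromosomes. The lowest were 60 to 70 Mb of chromosome 16 (-0.66), 0 to 10 Mb of X (-0.45), 10 to 20 Mb of 12 (-0.43) and 0 to 10 Mb of 1 (-0.37). Leaving out chromosomes 6, 8 and Y and 10 to 60 Mb of chromosome 11, an alternative chosen after these values were seen, left 1355 higher and 2225 lower intervals, and 541 of 1601 ERVL intervals were then higher. What sets these chromosomes apart was not tested.

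Called intervals also lay together in short stretches. Runs of at least 3 calls of 1 direction, each within 50 kb of the next, numbered 111 among higher intervals, with 466 members, and 240 among lower ones, with 959 members. Of the higher runs 45.9% lay on chromosomes 6, 8, 11 or Y, which hold 16.9% of tested intervals, and of the lower runs 8.33%.

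The higher run with most members lay on chromosome 18 from 37795373 to 37882460. Its 16 called intervals, of 41 tested there, summed to 3348 and 3548 reads in WT and 7594 and 7308 in KO. A run on chromosome 11 from 82869268 to 82965197 had 12 called of 22 tested and went from 1766 and 1843 reads to 4935 and 4960. On chromosome Y, from 90734108 to 90850928, 9 called intervals went from 4271 and 5609 reads to 14840 and 16096. The steepest of the long runs lay on chromosome 13 from 120580988 to 120635302, where all 8 tested intervals were called, with 563 and 477 reads in WT, 2106 and 2017 in KO and a median log2 difference of 1.85. Runs of 8 on chromosomes 2 and 6 had medians of 0.79 and 1.47. In each of these 6 runs no interval was called in the other direction.

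Among lower runs, all 17 tested intervals on chromosome 2 from 76555291 to 76628425 were called, and none overlapped a repeat over 50% of its length. They summed to 6126 and 6001 reads in WT and 3468 and 3430 in KO. On chromosome 5 from 104897041 to 105007897, 12 of 14 tested intervals were called, with 5567 and 4674 reads in WT and 1319 and 1359 in KO, a median of -1.95 on the log2 scale and the largest fall among the long runs. A run of 12 on chromosome 10 from 78827884 to 78898517 was made of 11 LINE-1 intervals and 1 without a repeat, and went from 4513 and 4590 reads to 2554 and 2695. On chromosome 7 from 30529280 to 30575632 all 11 tested intervals were called, with a median of -1.50, and on chromosome 17 from 15349228 to 15462948 9 of 13, with a median of -1.20. Chromosome 12 held 11 lower runs between 19 and 25 Mb. There 70 of 259 tested intervals were lower (27.0%) and 5 higher, among them 21 of 55 ERVK intervals lower, and reads over all 259 went from 32763 and 34337 to 25729 and 24667.

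Few intervals were close to all or nothing. Among 22230 intervals whose WT mean reached 50 reads, 10 kept 10% or less of that mean in KO, and 5 of these were ERVK intervals. Among 22865 whose KO mean reached 50 reads, 20 had 10% or less of it in WT, of which 5 were LINE-1 intervals, 9 had no repeat and 0 were ERVL.

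The 12 intervals with the largest rises lay on 9 chromosomes, and some of them were neighbours. The largest rise was on chromosome 2 from 27656206 to 27656458, with 2 and 3 reads in WT and 350 and 357 in KO, a log2 difference of 5.57 ± 0.39 (SE; limma adjusted p = 3.68e-06). A neighbour from 27649259 to 27649462 went from 5 and 5 reads to 189 and 148 (4.06 ± 0.38). On chromosome 3, a LINE-1 interval from 91049922 to 91050320 went from 8 and 6 reads to 360 and 376 (4.89 ± 0.33). Repeat loci at slightly higher coordinates rose as well. An ERVK locus from 91063118 to 91065860 held 2 and 2 reads in WT and 221 and 193 in KO, and a LINE-1 locus from 91076353 to 91079930 held 1 and 2 against 143 and 147.

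On chromosome 6, an interval without a repeat from 41752146 to 41752909 had 0 and 0 reads in WT and 73 and 58 in KO. Against a limit of 3 reads over both WT libraries, its share of reads was at least 41.1-fold higher in KO. On chromosome 5, 3 intervals within a short distance were among those named, of which 2 were MaLR intervals and 1 a simple repeat. The MaLR interval from 68349619 to 68350237 went from 9 and 4 reads to 154 and 184 (3.89 ± 0.38). The MaLR interval from 68350729 to 68350939 had 2 and 0 reads in WT and 50 and 64 in KO. The simple-repeat interval from 68352554 to 68352876 went from 16 and 19 reads to 118 and 100.

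Of the 12 intervals with the largest falls, 4 were ERVK and 1 was ERV1. The ERV1 interval, on chromosome 17 from 6844428 to 6846145, had by far the most reads of them, 2009 and 2242 in WT and 155 and 149 in KO (-3.93 ± 0.14, SE; limma adjusted p = 1.70e-09). Its deposited signal went from 255.2 ± 30.2 to 13.1 ± 3.16 (SD, n = 2 each). The ERV1 locus under it, from 6844554 to 6846599, held 2351 and 2643 reads in WT and 186 and 169 in KO. An interval without a repeat at lower coordinates, from 6787078 to 6787369, fell too, with 198 and 192 reads in WT against 24 and 30.

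The ERVK intervals that fell most lay on 3 chromosomes. On chromosome 9 from 13668927 to 13669139, reads went from 971 and 817 to 66 and 86 (-3.64 ± 0.20). On chromosome 12 from 21055420 to 21055722, they went from 70 and 142 to 0 and 4, and the WT libraries differed more from each other than in the other ERVK intervals named here. A second interval on chromosome 9 from 38325586 to 38325805 had 66 and 63 reads in WT and 0 and 2 in KO, a 68.5-fold lower share with a 95% counting interval from 18.6 to 572. On chromosome 13 from 93335675 to 93335890, reads went from 173 and 118 to 10 and 15. An interval without a repeat on chromosome 13 from 25386008 to 25386409 had the largest fall of all, from 195 and 179 reads to 4 and 9 (-4.18 ± 0.27).

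**Figure D5:**
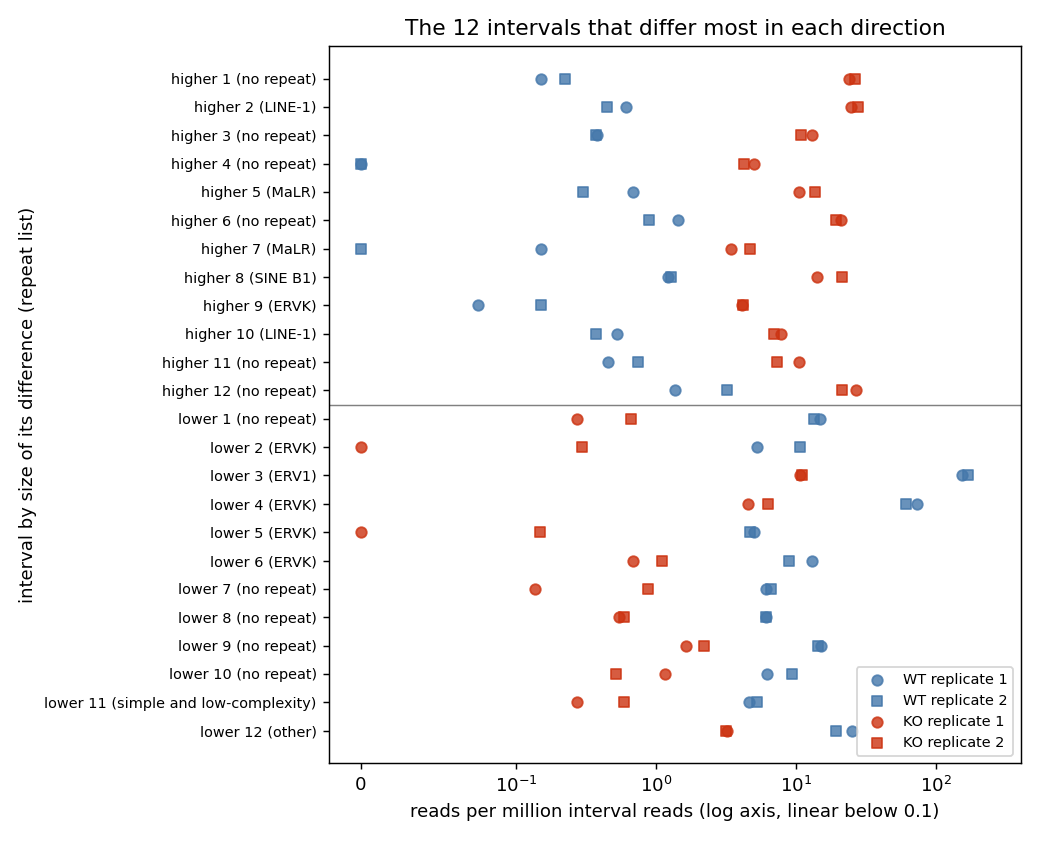
Reads scaled to a common total of interval reads (x axis, log scale that is linear below 0.1) in each library for the 12 intervals with the largest rise (top) and the 12 with the largest fall (bottom) in KO; circles and squares are replicates 1 and 2. In each row both KO points lie apart from both WT points.

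Across all repeat lists, the largest differences of ERVL intervals themselves were modest in comparison. The ERVL interval with the largest rise, on chromosome 4 from 143733549 to 143733900, went from 4 and 7 reads to 67 and 36 (2.36 ± 0.41). The ERVL interval with the largest fall, on chromosome 13 from 57674327 to 57674532, went from 64 and 57 to 22 and 17 (-1.53 ± 0.29). Among satellite intervals the largest rise was on chromosome Y from 90822361 to 90824123, from 3080 and 4458 reads to 11625 and 13346 (1.57 ± 0.16), and it lies in the Y run described above. The largest satellite fall was on chromosome 4 from 138274012 to 138274336, from 63 and 105 reads to 11 and 15.

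Single repeat loci differed in how alike their libraries were. A simple repeat on chromosome 17 from 40262405 to 40262440 had 1 and 1 reads in WT and 785 and 11 in KO, and a B2 locus on chromosome 19 from 5871196 to 5871388 had 0 and 3 against 86 and 292. By contrast, an L1-dependent retroposon on chromosome 5 from 109692398 to 109693456 had 73 and 52 reads in WT and 0 in both KO libraries. An ERVK locus on chromosome 12 from 109779231 to 109780089 fell from 63 and 41 reads to 4 and 3 (-3.94 ± 0.45).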

How the data were processed

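Both deposited tables hold signal, which is whole reads times 1 factor per library. Of their values, 100% were whole within a tolerance of 1e-06. Tools listed by the submitters' processing notes, with no version or role, are HISAT2, featureCounts, MACS2, bedtools, fastp, Picard and SAMtools, with the GRCm39 build.  Positions are as deposited. Whether starts count from 0 or 1 is not stated. WT and KO come from the column names. The KI columns were read as delcIDR by elimination.

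The test was limma 3.58.1 on log2 of the signal with a pseudocount of 0.5 (R 4.3.3, trended prior) over 6 libraries, run on intervals with a mean signal of at least 1 and loci with a mean of at least 20 reads. Folds on this scale understate low levels. edgeR 4.0.16 and DESeq2 1.42.0 were run on whole reads as alternatives. Families were assigned with bedtools 2.31.1. Standard errors of medians come from library medians. Intervals named have a group mean of at least 50 reads and libraries that do not overlap, and are a selection from the 12 largest in each direction and the 2 largest per list, with the 8 largest loci and the 5 largest runs. Members, lists and this rule were chosen with earlier results of these data known. Intervals on ratios cover counting error only, at 95%. The scripts were tested on simulated data. No gene table on GRCm39 was used here, so Alkbh5 itself, gene lists and cell markers were not analysed here. Replicate differences of WT and KO correlated at 0.076, those of WT and delcIDR at -0.29 and those of KO and delcIDR at -0.15. These values do not settle whether libraries of the same replicate number belong together. The main fits did not pair them, and the fit with the replicate number as a block is given below.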

Additional observations from a re-analysis of the deposited data

How the results depend on the processing

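Called intervals numbered 4156 on the deposited scale and 4514 after centring. On the deposited scale they became 2000 with no filter on low values, 14 with unmodified spike-in reads as the scale and 667 to 10775 with 1 library left out. After centring they ranged from 1160 to 3221 with 1 library left out and from 3234 to 5962 under the other alternatives. Repeat loci called went from 9219 to 3381 with KO and WT libraries only and to 5195 with a mean of at least 50 reads on the deposited scale, and to between 770 and 49452 without 1 library. After centring, 17300 became 5236 to 10978 without 1 library. Families went from 0 to between 0 and 54 without 1 library on the deposited scale, and from 11 to between 2 and 5 after centring, and to 4 with edgeR. With the replicate number as a block, the deposited scale gave 2370 intervals and 5714 loci, centring gave 3234 intervals, 13459 loci and 6 families, and 500 long ERVL loci and 450 ERVL intervals stayed higher. ERVL intervals called higher ranged from 62 to 501, ERVK intervals called lower from 75 to 114 and long ERVL loci from 177 to 479 without 1 library. With 90% of an interval covered, the medians of SINE B1, SINE B2 and SINE B4 and ID moved to 0.20, 0.097 and 0.026. Without 1 library they ranged from -0.16 to -0.058, from -0.26 to -0.14 and from -0.092 to -0.058, satellite from -0.36 to -0.19 and simple repeats from -0.36 to -0.12. The B4 and ID median was -0.014 with a mean of at least 50 reads and -0.068 without the chromosomes that stood apart. The total interval signal of KO lay at -0.41 ± 0.28 (SE) from WT on the deposited scale, at -0.0082 by ERCC reads and at -0.10 by repeat reads outside the intervals. Fewer samples were tested where a library was left out, and elsewhere the cause was not tested. Of the 57 named intervals, 0 changed direction, and 55 kept their call with the block, but leaving out KO replicates 1 and 2 in turn ended 14 and 11 calls, and leaving out WT replicates 1 and 2 ended 5 and 6. Of the 16 named loci, 7 and 8 lost it without KO replicates 1 and 2. The deposited scale rests on 1106 to 1870 m6A spike-in reads per KO or WT library.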
